A study of Mus musculus with 5 samples.

Results

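Cytochrome P450 genes were examined in GFP+ cells sorted from the lungs of FOXJ1-GFP mouse embryos at E17.5, late in gestation, and the level of each gene was compared with a background level. Members were all genes on the array whose symbol began with Cyp followed by a number, a letter and a number, and that had a probe set annotated to that gene alone. This gave 72 genes, among them 1 pseudogene (Cyp4f41-ps), of the 18193 genes measured. Where a gene had several such probe sets, the one with the highest mean was taken. Genes whose symbol has another form, such as Cyp51, lay outside the rule. A further 4 P450 probe sets each matched a pair of related genes and were not used, and for this reason Cyp2a5, an airway enzyme that shares its probe set with Cyp2a4, has no value here.

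All samples belonged to 1 group of 5 biological replicates, each on its own array. FOXJ1-GFP mice were mated to the outbred ICR strain, lungs with visible GFP were picked from the E17.5 embryos, and these were dissociated with trypsin and EDTA before flow cytometry for GFP+ cells. In this line GFP marks cells in which the promoter of FOXJ1, the regulator of motile cilia, is active, so the sort rested on the reporter and not on cell shape or surface markers. No GFP- cells and no other stage were analysed here, and every comparison below is therefore between a gene's level and the background, or between groups of genes. The sources do not say whether replicates were taken from different litters. The p-values below therefore reflect how far these 5 samples differed, and the number of arrays limits the precision.

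P450 enzymes are haem proteins of the endoplasmic reticulum or the mitochondria that use molecular oxygen and electrons from NADPH to oxidise small molecules. Families with low numbers mostly handle drugs, pollutants and fatty acids and are best known from hepatocytes, whereas families with higher numbers make or break down steroids, bile acids, vitamin D and retinoic acid. In the lung the drug-metabolising members are classically found in secretory (club) cells of the airway, where they activate inhaled toxicants. Some of the airway members named below are known from there, among them Cyp2f2.

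Levels are log2 signals, and the background level was 7.23. It is the 95th percentile of the mean levels of 157 genes chosen as best known from organs other than the lung. Receptors for odorants, pheromones and tastes made up 76 of them, and the other 81 are restricted to tissues such as retina, muscle, pancreas or brain. Of these 157 genes, 7 were themselves called above it, among them Lhb (mean 11.15) and Fabp2 (8.69). Whether lung cells use any of the 157 was not tested. A gene was called above background when limma's one-sided moderated test, with Benjamini-Hochberg adjustment over all 45037 probe sets that are not controls, gave an adjusted p under 0.05. The background level was treated as a fixed number. Differences from background (in log2 units) hold for 1 probe set, and since the brightness of a probe set also depends on its sequence, levels of different genes were not ranked against each other.

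Most P450 genes were not detected above background. Of the 72 genes, 13 (18.1%) were above background, whereas 63.7% of all genes measured were. The median level was 4.53 over the 72 P450 genes and 9.07 over all genes. Without replicate 5, on which some liver genes stood apart (described below), 14 of 72 P450 genes and 64.1% of all genes were called. With lower levels more genes of both kinds were called. At a level of 5 the counts were 28 of 72 and 81.3%, and with the receptor genes alone as background (level 5.44) they were 23 of 72 and 77.3%. A gene not above background was not detectable by this test, which does not show that it was not transcribed.

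By family, 4 of 35 measured Cyp2 genes were above background (Cyp2s1, Cyp2f2, Cyp2b10 and Cyp2j6), against 63.7% of all genes. In the Cyp4 family 4 of 13 genes were (Cyp4b1, Cyp4f16, Cyp4v3 and Cyp4f13). In the Cyp1 family 1 of 3 genes passed, Cyp1b1. The single measured members of Cyp20, Cyp21, Cyp39 and Cyp46 (Cyp20a1, Cyp21a1, Cyp39a1 and Cyp46a1) also passed. None of the 5 Cyp3, 3 Cyp11, 2 Cyp7, 2 Cyp26 or 2 Cyp27 genes was above background in limma, nor were the single genes of Cyp8, Cyp17 and Cyp24. At an unadjusted p under 0.05, 1 of these 17 genes passed, Cyp26b1. Some large subfamilies had no gene above background. All 11 Cyp2c genes lay between 3.14 and 5.46, all 8 Cyp2d genes between 3.38 and 6.53, and all 5 Cyp3a genes between 2.88 and 5.55. Of these 24 genes 0 passed in limma, also at an unadjusted p under 0.05.

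**Figure D1:**
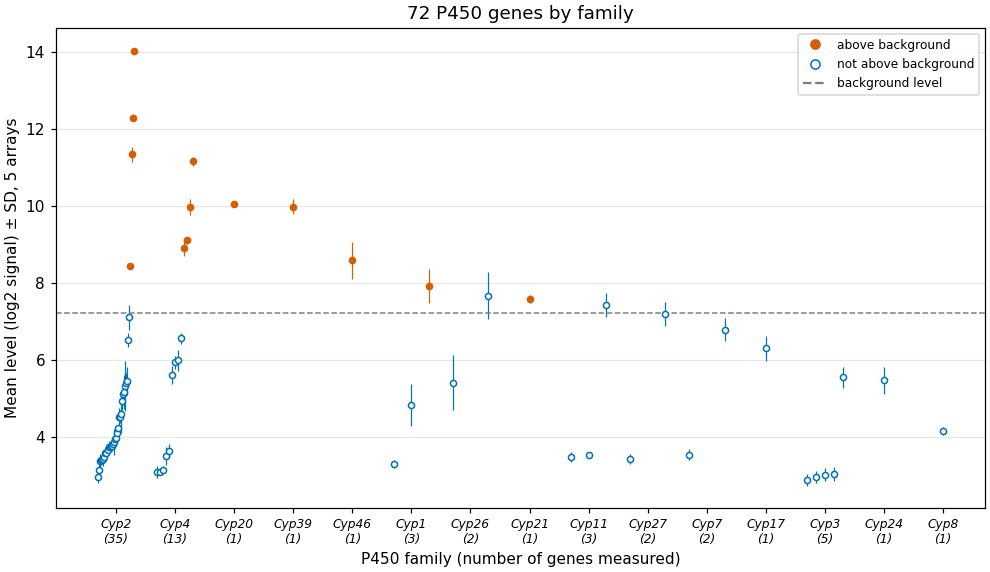
Mean level (log2 signal) of each of the 72 P450 genes on the vertical axis, grouped by family on the horizontal axis with the number of genes measured in brackets; bars are the SD over 5 arrays, filled points were above background and open points were not, and the dashed line is the background level of 7.23. The 13 filled points are spread over 7 families, while the Cyp3, Cyp11, Cyp7, Cyp26, Cyp27, Cyp8, Cyp17 and Cyp24 families hold open points only.

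Sequence directly upstream of the start site is shown for the airway members whose values the comparison turns on and for 4 relatives, of which Cyp1b1 was above background and the others were not, because members of 1 gene cluster or family gave very different levels. Each sequence is the 120 bases before the start annotated by RefSeq (assembly GRCm38.p6), read 5′ to 3′ on the strand of the gene. Capitals mark TATAAA (the TATA box core), GGGCGG (the GC box core) or GCGTG (the core of the element bound by the aryl hydrocarbon receptor), read on either strand. The windows are chr7:25816526-25816645 on the minus strand for Cyp2s1, chr7:27119835-27119954 on the plus strand for Cyp2f2, chr7:25897538-25897657 on the plus strand for Cyp2b10 and chr4:115647722-115647841 on the minus strand for Cyp4b1, the 4 airway members. For the relatives they are chr7:26173289-26173408 (plus) for Cyp2b9, chr7:140763699-140763818 (plus) for Cyp2e1, chr17:79715062-79715181 (minus) for Cyp1b1 and chr9:57697493-57697612 (plus) for Cyp1a1.
Cyp2s1: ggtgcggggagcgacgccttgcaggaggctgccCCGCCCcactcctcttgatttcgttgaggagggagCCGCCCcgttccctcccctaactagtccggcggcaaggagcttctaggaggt
Cyp2f2: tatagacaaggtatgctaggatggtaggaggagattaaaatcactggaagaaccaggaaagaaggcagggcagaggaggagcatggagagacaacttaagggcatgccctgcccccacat
Cyp2b10: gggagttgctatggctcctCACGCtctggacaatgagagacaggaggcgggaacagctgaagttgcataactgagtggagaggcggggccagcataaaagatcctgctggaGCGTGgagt
Cyp4b1: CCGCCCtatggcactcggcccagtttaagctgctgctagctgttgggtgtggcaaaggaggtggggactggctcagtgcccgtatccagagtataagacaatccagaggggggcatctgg
Cyp2b9: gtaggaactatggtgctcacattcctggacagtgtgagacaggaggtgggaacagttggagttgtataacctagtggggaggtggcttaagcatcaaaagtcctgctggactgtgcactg
Cyp2e1: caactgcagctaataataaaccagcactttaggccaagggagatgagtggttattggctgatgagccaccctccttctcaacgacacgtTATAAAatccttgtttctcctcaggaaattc
Cyp1b1: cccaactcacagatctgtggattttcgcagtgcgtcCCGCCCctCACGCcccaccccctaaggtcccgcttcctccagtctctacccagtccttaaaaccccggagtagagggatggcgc
Cyp1a1: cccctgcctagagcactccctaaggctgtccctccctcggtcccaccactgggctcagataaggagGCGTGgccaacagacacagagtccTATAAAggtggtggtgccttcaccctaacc

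None of the 4 airway windows shown holds TATAAA. Among the relatives, Cyp2e1 and Cyp1a1 carry it close to the start, whereas Cyp1b1 and Cyp2b9, the latter not above background, do not. Searched over the full 250 bases upstream, on both strands, TATAAA was found in 0 of the 11 P450 genes above background that had a window in the RefSeq table, in 19 of 40 (47.5%) of those not above background, and in 12.3% of all 32536 distinct windows of that length in the table. Among liver P450 genes it was found in 14 of 23 (60.9%). GGGCGG showed the opposite distribution, with 8 of 11 (72.7%) P450 genes above background, 7 of 40 not above, and 33.0% of all windows. GCGTG was found in 6 of 11 (54.5%) genes above background, 6 of 40 not above, and 28.35% of all windows. Of the 4 airway genes, 2 held GGGCGG and 1 held GCGTG, and each was found in 2 of the 23 liver genes. GGGCGG and GCGTG can share 1 base at their ends. The P450 counts use 1 window per gene, from its first listed start. The share of all windows takes every distinct window, so a gene with several starts can count more than once. These counts describe letters and were not tested, and members of 1 subfamily share ancestry and so are not independent. The Cyp2b10 and Cyp2b9 windows matched at 93 aligned positions, with 22 mismatches and 10 gaps (74.4% identity), compared with 51.5% for Cyp2b10 and Cyp2f2.

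All 4 airway members that could be measured were above background, on every array. The share was 13 of 72 over all P450 genes and 63.7% over all genes measured. The airway list was chosen with earlier results of these data known, so its count is a description only. Cyp2s1, an enzyme known from airway and other epithelia, had levels of 13.98, 14.03, 14.08, 14.04 and 14.05 in replicates 1 to 5 (mean 14.04 ± 0.03, SD, n = 5). Its mean was 6.81 above background (adjusted p = 5.27e-11, limma), and no array stood apart. Cyp2f2, which activates naphthalene in club cells, had levels of 12.34, 12.33, 12.21, 12.40 and 12.19 (12.30 ± 0.09, SD, n = 5), which was 5.07 above background (adjusted p = 8.16e-11, limma). Both were close to constant over the 5 arrays.

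Cyp2b10, known in liver as the target of the constitutive androstane receptor and also expressed in lung, had levels of 11.61, 11.41, 11.07, 11.38 and 11.26 (11.34 ± 0.20, SD, n = 5). This was 4.12 above background (adjusted p = 9.32e-10, limma), with the highest value on replicate 1 and the lowest on replicate 3. Its 3 probe sets had means of 11.34, 11.18 and 10.85, all of them above the background level. Cyp4b1, a lung enzyme that activates plant furans, had levels of 11.19, 11.36, 11.10, 11.16 and 11.04 (11.17 ± 0.12, SD, n = 5), or 3.94 above background (adjusted p = 3.4e-10, limma). The arrays pool all sorted cells, so which cells carried these transcripts was not measured, and fewer cells of a type cannot be told apart from less RNA per cell.

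Liver members gave the contrasting picture. Of 29 measured genes (38 listed) known mainly from hepatocytes, 1 was above background, against 13 of all 72 P450 genes and 63.7% of all genes. The other 28 lay between 2.88 and 5.62. No hepatocytes were analysed, so whether liver itself uses these genes at E17.5 was not tested. The contrast with the 4 of 4 airway members is one of counts, since levels of different probe sets were not compared. Both lists were chosen with earlier results of these data known, so the contrast is not an independent test. Cyp7a1, the rate-limiting enzyme of bile acid synthesis, had a mean of 3.54 ± 0.14. Cyp8b1, which sets the proportion of cholic acid, had a mean of 4.15 ± 0.11, and Cyp1a2, the caffeine-oxidising enzyme, had one of 3.30 ± 0.11 (SD, n = 5 each). Every one of their values was below background.

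Cyp2e1, the ethanol-oxidising enzyme, had levels of 5.17, 5.03, 5.66, 5.45 and 4.51 (5.17 ± 0.44, SD, n = 5). It varied more than the other liver members just named and was lowest on replicate 5, but no array reached background. Against the lower level of 5 its mean was higher by 0.17 and did not pass (adjusted p = 0.221, limma), and at that level 2 of the 29 liver members were called.

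Cyp39a1, an oxysterol hydroxylase of bile acid synthesis, was the exception among the liver members. Its levels were 9.99, 9.87, 9.81, 9.95 and 10.33 (9.99 ± 0.20, SD, n = 5), all above background and highest on replicate 5. The mean was 2.76 above background (adjusted p = 1.15e-08, limma). The gene has 1 probe set on the array.

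**Figure D2:**
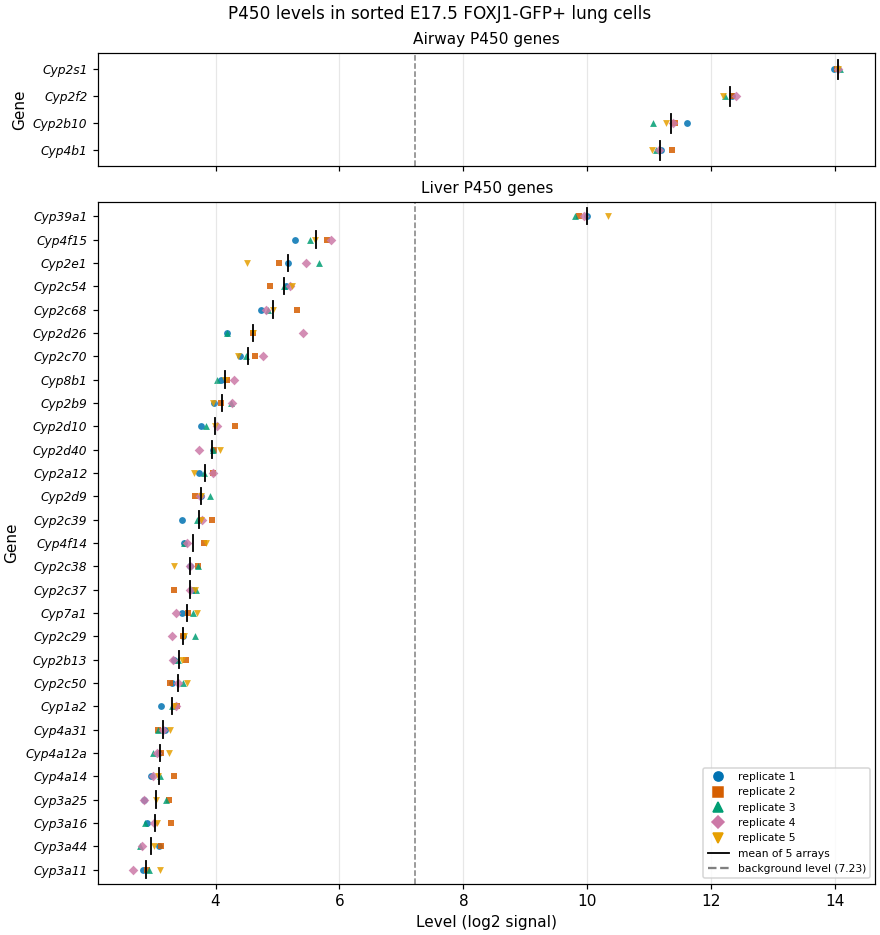
Levels (log2 signal, horizontal axis) of the 4 airway and 29 liver P450 genes (rows) on each of the 5 arrays; symbols are replicates, the black bar is the mean and the dashed line the background level of 7.23. All airway values lie at 11.04 or higher, and among liver genes only Cyp39a1 lies to the right of the line.

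Detected and undetected members were neighbours in 4 of 9 gene clusters, and the other 5 clusters had no member above background. Neighbouring P450 genes were grouped where RefSeq places them within 1000000 bases of each other. The chromosome 7 cluster from Cyp2s1 to Cyp2f2 has 17 P450 loci, 8 of them measured. Cyp2s1, Cyp2b10 and Cyp2f2 were above background with means between 11.34 and 14.04, whereas Cyp2b13, Cyp2b9, Cyp2b19, Cyp2g1 and Cyp2a12 had means between 2.96 and 4.11. In RefSeq order Cyp2s1 and Cyp2b10 are next to each other at one end and Cyp2f2 lies near the other. The undetected genes lie between them, and so do loci without a value, among them the airway gene Cyp2a5.

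Similarly, in the chromosome 4 cluster from Cyp4x1 to Cyp4b1, with 14 loci and 5 measured, Cyp4b1 at the end was above background and the other measured genes lay between 3.09 and 3.51. In the Cyp4f cluster, with 10 loci and 6 measured, Cyp4f16 and Cyp4f13 were above background (8.92 to 9.98) and the others lay between 3.64 and 6.57. In the Cyp2j cluster 1 of 5 measured genes was above background, Cyp2j6. The Cyp2c cluster (10 measured of 18 loci), the Cyp2d cluster (8 of 19), the Cyp3a cluster (4 of 11), the Cyp1a pair and the Cyp11b pair had 0 genes above background in limma, and no gene of these 5 clusters had a mean above 6.53.

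**Figure D3:**
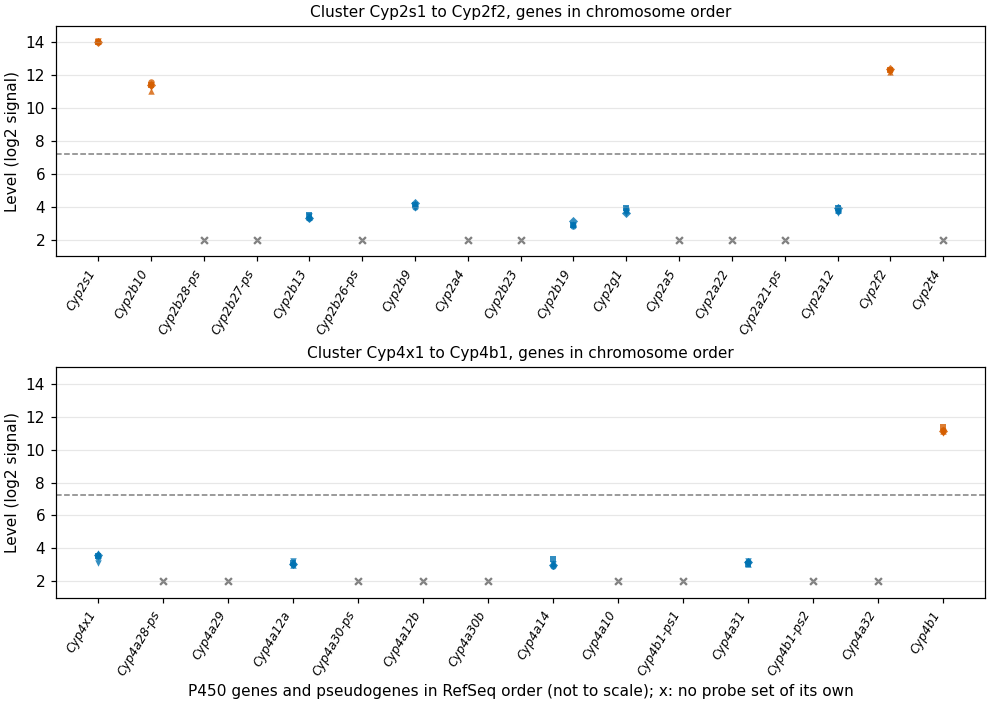
Levels (log2 signal, vertical axis) of the P450 genes of 2 clusters in RefSeq order along the horizontal axis (not to scale), with 1 symbol per array; orange genes were above background, blue genes were not, grey crosses are loci without a probe set of their own, and the dashed line is the background level of 7.23. In the Cyp2s1 to Cyp2f2 cluster the detected genes sit toward the ends, with the undetected genes at 4.11 or lower between them. Loci without a value, among them Cyp2a5, also lie there.

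Among P450 enzymes of fatty acid oxidation outside the liver list, 4 of 12 measured genes were above background. The share was 13 of 72 over all P450 genes and 63.7% over all genes. Cyp4f16, of a subfamily that hydroxylates leukotrienes and long-chain fatty acids, had levels of 9.999, 9.69, 9.87, 10.18 and 10.17 (9.98 ± 0.21, SD, n = 5), or 2.75 above background (adjusted p = 1.24e-08, limma). Its second probe set had a mean of 6.93. With the mean of both the difference was 1.41 from the lower background level of averaged probe sets (7.04). Cyp4f13 of the same subfamily had levels of 8.69, 8.81, 9.01, 9.25 and 8.84 (8.92 ± 0.22, SD, n = 5) and was 1.69 above background (adjusted p = 3.63e-07, limma). Both were above background on all arrays and were highest on replicate 4.

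Cyp4v3, the mouse counterpart of the fatty acid hydroxylase mutated in a human corneoretinal dystrophy, had levels of 8.98, 9.10, 9.12, 9.16 and 9.21 (9.11 ± 0.09, SD, n = 5), or 1.89 above background (adjusted p = 1.43e-08, limma). Its other probe set, the one without a suffix, had a mean of 7.76, and on it alone the difference was 0.76. Cyp2j6, of a subfamily that makes epoxides of arachidonic acid, had levels of 8.34, 8.42, 8.53, 8.51 and 8.43 (8.45 ± 0.07, SD, n = 5) and was 1.22 above background (adjusted p = 1.98e-07, limma). The second Cyp2j6 probe set had a mean of 5.92, and with the mean of both probe sets the gene was only 0.14 above the matching background and did not pass (adjusted p = 0.143, limma). It also missed the threshold with the background at its 99th percentile, where its difference was 0.10. Cyp2j5, Cyp2j9, Cyp2j11, Cyp2j13, Cyp2u1, Cyp4f18, Cyp4f39 and Cyp4x1 were not above background. The list also held Cyp2c44, which RefSeq gives as an older name of Cyp2c23, and that gene was not above background.

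Of the 3 Cyp1 genes listed as targets of the aryl hydrocarbon receptor, 1 was above background, against 63.7% of all genes. The list does not hold every target of the receptor, and Ahrr is given below. Cyp1b1, which oxidises polycyclic hydrocarbons and estrogens and is known from mesenchymal cells as well as epithelia, had levels of 7.98, 8.68, 7.54, 7.69 and 7.73 (7.92 ± 0.45, SD, n = 5). Every array was above background and replicate 2 was the highest. The mean difference was 0.70 (adjusted p = 0.00341, limma). Its other probe sets had means of 5.43 and 3.62, and the difference turned to -1.38 with the mean of all its probe sets. When the background was set at its 99th percentile it was -0.42, and with hepatocyte genes added to the background it was 0.39 and missed the threshold (adjusted p = 0.0504, limma). Cyp1a1, the most inducible target, had a mean of 4.83 ± 0.55 (SD, n = 5) and Cyp1a2 is given above. As the sequences above show, the Cyp1a1 window holds both GCGTG and TATAAA, and that of Cyp1b1 holds GCGTG and GGGCGG but not TATAAA.

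Steroid-making members were near or below background. Cyp21a1, the 21-hydroxylase of the adrenal, had levels of 7.63, 7.65, 7.44, 7.68 and 7.51 (7.58 ± 0.10, SD, n = 5), which was 0.36 above background (adjusted p = 0.000901, limma). A second probe set had a mean of 4.69, the difference was -0.90 with the mean of both, and a closely related pseudogene (Cyp21a2-ps) on the same chromosome could share signal. The call was also lost when hepatocyte genes joined the background (difference 0.05, adjusted p = 0.538, limma). Cyp11a1, which makes pregnenolone from cholesterol, had levels of 7.50, 7.09, 7.36, 7.91 and 7.26 (7.42 ± 0.31, SD, n = 5). These fell on both sides of background, and the mean difference of 0.20 did not pass (adjusted p = 0.144, limma). It passed at 0.42 when probe sets with a suffix were left out and the background level was lower (adjusted p = 0.0096, limma), and turned to -1.11 when its 3 probe sets were averaged. Cyp17a1, Cyp11b1 and Cyp11b2 were not above background.

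Markers of steroid-making cells were given beside these genes. Of 5 measured, 1 was above background (63.7% of all genes were), Fdx1, an electron carrier that many cells use. Star, the cholesterol carrier of steroidogenic mitochondria, had a mean of 7.39 ± 0.32, whereas Hsd3b1, Nr5a1 and Mc2r, the receptor for adrenocorticotropin, had means of 3.86, 5.80 and 3.00 (n = 5 each).

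Of 6 members listed as acting on sterols or vitamin D, 1 was above background, against 63.7% of all genes. Cyp46a1, the cholesterol hydroxylase best known from neurons, had levels of 8.09, 8.09, 9.01, 9.07 and 8.73 (8.60 ± 0.48, SD, n = 5). Replicates 1 and 2 were nearly equal and lower than the other arrays, and all were above background. The mean difference was 1.37 (adjusted p = 8.74e-05, limma), and with the background at its 99th percentile the difference was 0.25 and missed the threshold (adjusted p = 0.235, limma). Cyp27a1 and Cyp7b1, oxysterol enzymes with means of 7.19 and 6.79, were not above background, and neither were the vitamin D enzymes Cyp2r1, Cyp24a1 and Cyp27b1.

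The measured retinoic acid-degrading enzymes were among the most variable members, and neither was above background. Cyp26b1 had levels of 7.46, 8.19, 7.99, 8.02 and 6.70 (7.67 ± 0.61, SD, n = 5). It was above background on 4 of 5 arrays and below it on replicate 5, and the mean difference of 0.44 did not pass (adjusted p = 0.075, limma), although its unadjusted p was under 0.05. Without replicate 5 it was 0.76 and passed (adjusted p = 0.0011, limma). With all arrays it also passed where the background level was lower, at 0.63 when probe sets were averaged (adjusted p = 0.0119, limma) and 0.67 when those with a suffix were left out (adjusted p = 0.0159, limma). Cyp26a1 had levels of 5.72, 5.60, 6.34, 4.77 and 4.65 (5.42 ± 0.70, SD, n = 5), below background on every array and also lowest on replicate 5.

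One detected member belonged to none of these groups. Cyp20a1, a conserved P450 without an established substrate, had levels of 10.10, 9.95, 10.14, 10.04 and 10.03 (10.05 ± 0.07, SD, n = 5), or 2.83 above background (adjusted p = 9.77e-10, limma). Its other probe sets had means of 6.12 and 5.76. With the mean of all 3 the difference shrank to 0.27 and passed (adjusted p = 0.0011, limma). That difference is from a lower background level of 7.04, since background genes were averaged in the same way. The other 11 members outside the lists, among them Cyp2c55, Cyp2g1 and Cyp3a13, were not above background.

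Partner genes of P450 enzymes were above background in 39 of 53 cases, against 63.7% of all genes. Of these, all 11 measured genes of electron transfer and of haem synthesis, breakdown (Hmox1 and Hmox2) and binding were above background. Cyb5a and Cyb5b, the microsomal and mitochondrial b-type cytochromes of electron transfer, had means of 12.14 ± 0.08 and 11.42 ± 0.15, and Cyb5r3, their reductase, had a mean of 10.86 ± 0.08. Fdx1, the ferredoxin that serves mitochondrial P450 enzymes, had a mean of 11.69 ± 0.16 (SD, n = 5 each). Por, the main P450 reductase, was not analysed here.

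Of the transcription factors that control P450 genes, 8 of 15 measured were above background, against 63.7% of all genes. Ahr, the aryl hydrocarbon receptor, and Arnt, its partner, had means of 11.94 ± 0.19 and 11.49 ± 0.12, whereas Ahrr, a repressor and target of the same receptor, was not above background at 4.67 ± 0.38 (SD, n = 5 each). The xenobiotic receptors Nr1i2 (6.08 ± 0.26) and Nr1i3 (5.31 ± 0.20) were not above background, and neither were Ppara, Hnf4a, Nr1h4 and Nr5a1. Hnf4a, the main hepatocyte regulator, had a mean of 6.52 ± 0.58 (SD, n = 5). Rxra, Rxrb, Cebpa, Nr5a2, Vdr and Nfe2l2 passed.

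Retinoid genes other than Cyp26 were above background in 7 of 11 cases, close to the 63.7% of all genes. Aldh1a1 and Rdh10, which act in retinoic acid synthesis, had means of 12.96 ± 0.06 and 9.06 ± 0.08. Aldh1a2 (7.05), Aldh1a3 (6.26), Crabp1 (6.56) and Crabp2 (7.06) were not above background. Enzymes that act on P450 products or beside P450 enzymes were above background in 13 of 16 cases, against the same 63.7%. Ephx1, the microsomal epoxide hydrolase, had a mean of 11.27 ± 0.21, and the flavin monooxygenases Fmo1 and Fmo2 had means of 9.08 ± 0.53 and 9.93 ± 0.30 (SD, n = 5 each). Ephx2 (7.07), Ugt2b5 (3.61) and Sult1d1 (5.73) were not above background.

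The spread between arrays differed among the detected P450 genes. The median SD was 0.122 over the 13 P450 genes above background and 0.156 over all 11598 genes above background. Only 1.15% of genes above background had a smaller SD than Cyp2s1, whose level was near the highest values of the arrays (14.98 to 15.11), and whether that limits its spread was not tested. Cyp2b10, Cyp39a1, Cyp4f16 and Cyp4f13 had a larger SD than 66.1% to 71.8% of genes above background. Cyp46a1 and Cyp1b1 lay at the other end, with a larger SD than 98.1% and 97.5% of genes above background. The mean deviation of the 4 airway members from their own means varied by 0.17 over the arrays.

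Taken as lists, markers of cells other than ciliated cells varied more than the airway members did. The 11 club cell genes above background (of 13, with Bpifa1 and Tff2 not above) deviated together by 0.41 on replicate 4 and by -0.33 on replicate 5, and the mean level of the 13 genes ranged from 10.59 to 11.29 over the arrays. Single club cell genes differed in spread, with SDs from 0.027 (Hp) to 0.81 (Muc5b), beside 0.034 (Cyp2s1) to 0.20 (Cyp2b10) for the airway members. Scgb1a1, the defining club cell secretoglobin, had a mean of 13.99 ± 0.14. Of the ciliated cell genes 14 of 15 were above background (Spag6 was not), Foxj1 had a mean of 12.82 ± 0.08 (SD, n = 5 each), and the 14 genes together varied by 0.06. The sorted RNA also held all 9 alveolar type 2, all 10 alveolar type 1 and all 12 endothelial markers measured above background. So were 12 of 13 mesenchymal and 9 of 12 white blood cell markers, against 63.7% of all genes. Between arrays the alveolar type 2 markers varied by 1.21, the endothelial markers by 0.96 and the markers of white blood cells by 0.93. The part of these cells in the levels of the P450 genes was not tested.

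**Figure D4:**
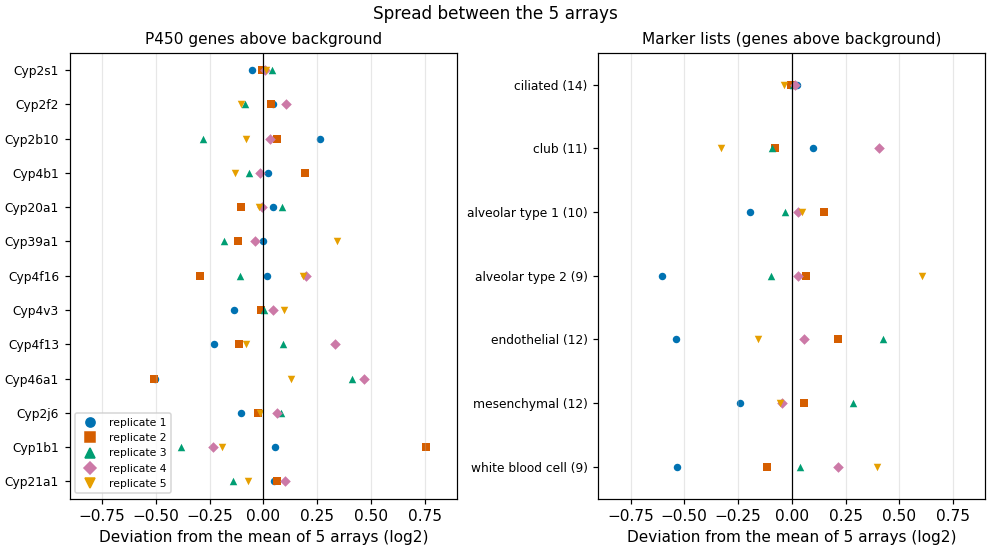
Deviation of each array from the mean of the 5 arrays (log2 units, horizontal axis), for the 13 P450 genes above background on the left and for the mean of each marker list on the right, with the number of marker genes above background in brackets; symbols are replicates. The points of Cyp2s1 and of the ciliated list almost coincide, whereas those of Cyp46a1, Cyp1b1 and the lists for white blood cells, endothelium and alveolar type 2 cells spread widely.

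Hepatocyte markers were examined because liver P450 genes were contrasted with airway ones. Of 17 measured, 2 were above background (63.7% of all genes were), Ttr and F2, with means of 10.61 and 9.40. Alb, the serum albumin gene, had levels of 5.83, 5.81, 6.11, 5.86 and 8.54, so that replicate 5 alone rose above background. Apoa2, an apolipoprotein of high density lipoprotein, had levels of 6.76, 6.99, 6.73, 7.02 and 8.05, with the same array highest. Replicate 5 exceeded the mean of the other arrays by 2.64 for Alb, 1.18 for Apoa2, 0.99 for Ambp and 0.93 for Afp, but by 0.10 for Ttr and 0.094 for F2, the markers above background. Of the 17 markers, 7 were highest on replicate 5 and 6 on replicate 2.

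For the liver P450 genes the same comparison is limited, because 28 of the 29 lay below background on every array, where a change in transcript may not show. The mean over the 29 genes was 3.93, 4.08, 4.01, 4.05 and 4.04 in replicates 1 to 5, with 9 of the 29 highest on replicate 5 and 10 on replicate 2. On replicate 5 Cyp2e1 was 0.82 lower than the mean of the other arrays (its difference is -0.82), while Cyp39a1 was 0.43 higher and remained above background without that array. The count of liver members above background was 1 of 29 with or without replicate 5. The part of hepatocyte RNA in the level of Cyp39a1 was not tested beyond these values.

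**Figure D5:**
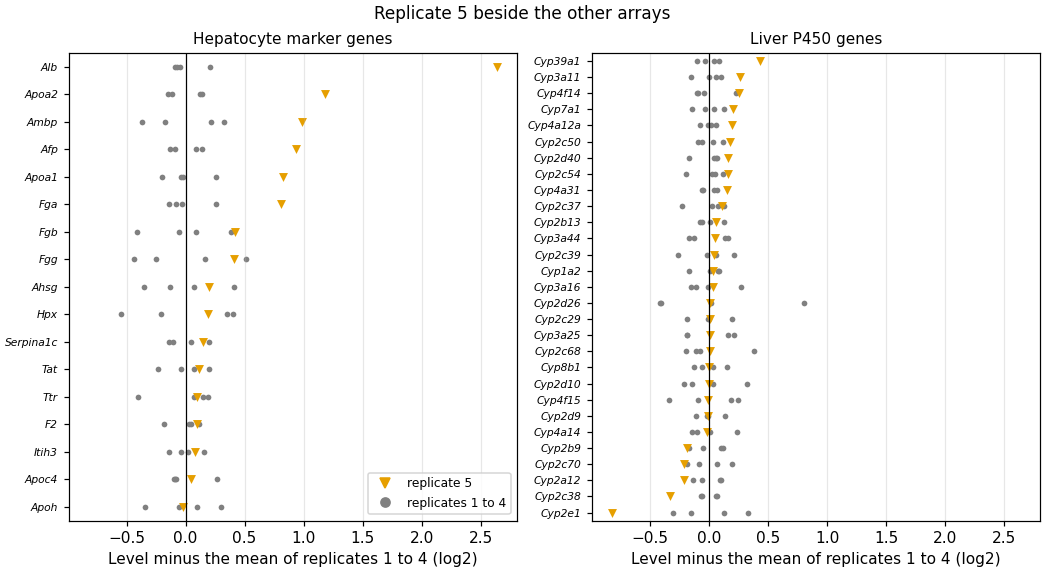
Level minus the mean of replicates 1 to 4 (log2 units, horizontal axis) for 17 hepatocyte marker genes on the left and 29 liver P450 genes on the right; triangles are replicate 5 and grey points replicates 1 to 4. Replicate 5 stands to the right for Alb (2.64) and Apoa2 (1.18), whereas liver P450 genes lie between -0.82 (Cyp2e1) and 0.43 (Cyp39a1).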

How the data were processed

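Total RNA of 5 samples of sorted cells was amplified, labelled with biotin and hybridised to Affymetrix mouse arrays. The authors processed the arrays with Bioconductor in R and deposited normalized log2 values, a single number for each probe set on each array. That these are log2 values was read from their range and shape, and which normalization was used is not stated in the sources. They were analysed without further transformation. Array medians lay between 7.18 and 7.26, and Pearson's r between arrays across probe sets lay between 0.987 and 0.994.

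Control probe sets (64) were removed. Of the others, 34945 had 1 gene symbol, 932 had several and 9160 had none. All 72 member symbols matched RefSeq identifiers (GRCm38.p6). The mean of every probe set was modelled in limma 3.58.1 (lmFit, eBayes; R 4.3.3) and compared with background as described in the results. These steps were tested on simulated data. Sequence windows and figures used Python 3.11.15, pandas 2.3.3, biopython 1.88 and matplotlib 3.10.9. Windows were found for 51 members.

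Members and lists were chosen with earlier results of these data known. Named with values were airway members, members above background, the first 4 liver members, the 2 highest members not above background, members above background whose probe sets differed by over 2 log2 units, and the first 4 of each partner list. Cyp1a1, Cyp26a1, Cyp27a1 and Cyp7b1 and some marker genes were named after their values were seen. Groups came from the labels. Alternatives were to average a gene's probe sets, to drop probe sets with a suffix, to quantile-normalize or centre the arrays, to require all 5 arrays above the level, to use other background levels, and to leave out each replicate.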

Additional observations from a re-analysis of the deposited data

Results flagged for a closer look

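For the named genes and the lists, the gap between the highest or lowest array and its nearest neighbour was divided by the range over the 5 arrays. This share exceeded 0.71 in 5 of 59 cases, and chance alone flags about 1 case in 20. None of the 19 named P450 genes was among them in this comparison. Alb reached 0.891 because replicate 5 (8.54) lay far above the next array (6.11), and Apoa2 reached 0.782 with replicate 5 at 8.05 and the next array at 7.02. Nr1i2, which encodes the pregnane X receptor, reached 0.755 with replicate 4 at 6.53 and the next array at 6.04, all below background. Mc2r reached 0.779 with replicate 1 at 2.72 and the next array at 3.03, also below background. The mean deviation of the hepatocyte genes above background, Ttr and F2, reached 0.817 because replicate 3 (-0.31) lay below the other arrays.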

How the results depend on the processing

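Of 60 comparisons of the counts above background with an alternative, 57 stayed within 1.5 times the count in the report. The exceptions used lower levels: with the receptor genes alone as background (level 5.44) 23 of 72 P450 genes were called, and against a level of 5 there were 28 P450 genes and 2 liver members. The other alternatives gave 9 to 14 P450 genes, with 13 to 14 when 1 replicate was left out. All measured airway members were called under every alternative, although Cyp2f2 has no value when probe sets with a suffix are left out. Of 284 comparisons for single genes, 258 kept direction and call. With the mean of all probe sets, where the background level was 7.04, the difference was -1.38 for Cyp1b1, -0.90 for Cyp21a1 and -1.11 for Cyp11a1. With the 99th percentile it was -0.42 for Cyp1b1, -0.76 for Cyp21a1, -0.67 for Cyp26b1 and -0.92 for Cyp11a1. With tissue-restricted background genes alone it was -0.020 for Cyp1b1, -0.36 for Cyp21a1, -0.27 for Cyp26b1 and -0.52 for Cyp11a1. With hepatocyte genes in the background it was -0.11 for Cyp11a1, and against a level of 5 Cyp2e1 turned to 0.17. A further 5 comparisons lost a call and 8 gained one, the latter all for Cyp26b1 or Cyp11a1. A higher background level lowers every difference by construction, and for the probe sets the cause was not tested. No paired analysis was possible because there is 1 group of samples.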
